A study of Mus musculus with 12 samples.

Results

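The response of ATDC5 cells to 3 ordered temperatures was examined in 12 of the 12 libraries of the series, 4 at 37 °C, 4 at 40 °C and 4 at 44 °C. ATDC5 is a mouse cell line, labelled as wild-type cartilage progenitor cells and widely used as a culture model of chondrocytes. Cultures kept at 37 °C in DMEM rich in sugar, with fetal bovine serum added, were exposed for 10 min to one of the 3 temperatures, so the 37 °C libraries are the unheated controls. All 3 groups are the same wild-type line, and each had 4 biological replicates per the series design. How long after the exposure the RNA was taken is not given in the sources used here. Each gene was tested for a trend over temperature and for a departure of the 40 °C level from that trend. The members are therefore libraries, and every gene past the filter on low counts was sorted by the shape of its response.

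Mammalian cells meet heat with several programmes that differ in what they sense. Unfolded protein in the cytosol and nucleus releases HSF1, which binds heat shock elements and drives genes of chaperones such as the HSP70 and small heat shock proteins. The endoplasmic reticulum (ER) has its own chaperones, driven by ATF6 and XBP1 when secretory proteins misfold, and interferon and clock genes are set by still other regulators. A gene whose regulator is engaged above a limit between 40 °C and 44 °C could differ at 44 °C only. A gene that follows temperature itself could already stand between its end levels at 40 °C. The shapes sorted here describe levels, and how a gene is regulated was not tested.

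Total counts lay between 16269026 and 19506705 per library, and 14424 of 54532 listed genes passed the filter. Libraries of 1 group also differed among themselves. A principal component fitted to these within-group differences took up 29.8% of their variance and is called the within-group axis here. The 37 °C libraries averaged -0.424 ± 0.78 on it, the 40 °C libraries 0.012 ± 1.02 and the 44 °C libraries 0.412 ± 1.24 (SD), and the single libraries lay between -1.47 (37 °C replicate 1) and 1.5 (44 °C replicate 2). These means rose with temperature while the single libraries of the 3 groups overlapped, and the axis was not tested against temperature. Its part in the results was not tested beyond a model that includes it. Libraries were placed on the axis with their group means kept. That model therefore also takes out differences between the temperatures along the axis. Levels are given as CPM (read counts scaled to a common library size) on TMM-scaled library sizes, and p-values measure the spread between these libraries.

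The trend is the slope of log2 expression per °C over the 12 libraries. In edgeR's quasi-likelihood test, 1002 genes (6.95% of those tested) were higher and 1071 (7.43%) were lower with rising temperature at an adjusted p under 0.05. Without 1 library the trend was called for as few as 1020 genes (44 °C replicate 2) and as many as 3408 (44 °C replicate 1), and omitting 37 °C replicates 1, 2 or 4 or 44 °C replicate 4 gave 1125, 1308, 1200 and 1130. The departure is the log2 distance of the 40 °C mean from the straight line drawn between 37 °C and 44 °C. It was called for 6 genes (0.0416%), and in all 6 the 40 °C mean lay on the 37 °C side of the line. Without 40 °C replicate 2 it was called for 10. The step from 37 °C to 40 °C gave 0 called genes (0%), while DESeq2 called 4. At an unadjusted p under 0.05 it held 752 genes (5.21%), near the share that chance alone gives at that threshold. The step from 40 °C to 44 °C, which shares the 40 °C libraries with the first step, gave 271 higher (1.88%) and 453 lower (3.14%) genes, 724 in all. That count was 394, 421 and 420 without 40 °C replicates 1, 3 and 4, and 1265, 426 and 456 without 44 °C replicates 1, 2 and 4. The whole change from 37 °C to 44 °C was called for 1975 genes (13.7%), and a joint test of any difference among the 3 temperatures for 1184 (8.21%). Without 1 library these counts ran from 979 to 3355 and from 562 to 2125.

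The 6 genes with a called departure also passed the tests of trend and of the second step, and none passed the first step. They form the 44 °C-only class. The name stands for these calls and does not show that 40 °C was unchanged, since no gene tested passed the first step. Hspb1 was higher at 44 °C, and Hspa5, Calr, Bst2, Ifitm3 and Acta2 were lower. No gene met the rule for a graded response, which asked for both steps to be called with no departure, and no gene met the rules for an early or a called non-monotonic response. Of the other genes called for trend, 1771 had a 40 °C mean between those of 37 °C and 44 °C and 296 had one outside them, and in neither group did the tests resolve the shape. With the within-group axis added to the model the departure was called for 322 genes, 299 of them with 40 °C on the 37 °C side, and the 44 °C-only class held 309. DESeq2 called 44 departures, 43 on the 37 °C side.

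To describe the shape without a call, the log2 difference at 40 °C was divided by that at 44 °C, both against 37 °C. This share is 0 for a gene that had not moved at 40 °C, 1 for a gene that had moved as far as at 44 °C, and 0.429 for a gene on the straight line, because 40 °C lies 3 of the 7 degrees along. Among the 2073 genes called for trend, the median share was 0.254, with quartiles of 0.0968 and 0.408. The 40 °C mean lay on the 37 °C side of the line in 1623 of them (78.3%), against 52.7% of the 12351 genes not called for trend. Genes that were lower at 44 °C had a median share of 0.205 (83.2% on the 37 °C side) and genes that were higher had one of 0.31 (73.1%). The counts of genes on the 37 °C side in the lists below stand beside these shares. Counts called higher or lower in a list stand beside 6.95% higher and 7.43% lower of all genes tested. The trend and departure contrasts are orthogonal with 4 libraries in each group, so choosing genes by trend does not set the side of the departure, but all genes share the same 4 libraries at 40 °C and are not independent. Leaving out 1 library at a time gave median shares between 0.156, without 40 °C replicate 2, and 0.338, without 37 °C replicate 3.

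**Figure D1:**
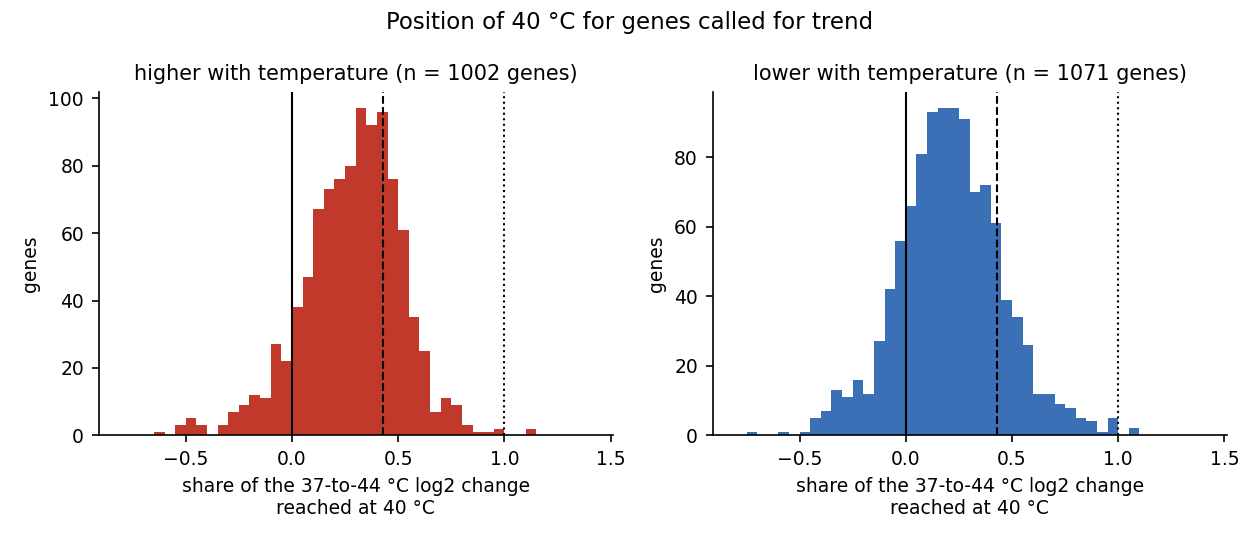
Histograms of the share of the log2 change from 37 °C to 44 °C that was reached at 40 °C (x axis, no unit) for the genes called higher (left, 1002 genes) and lower (right, 1071 genes) with temperature; the y axis counts genes, and vertical lines mark 0 (solid), the straight line at 0.429 (dashed) and 1 (dotted). Both distributions have most of their genes left of the dashed line, with medians of 0.31 and 0.205.

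The precision per gene was low. The 95% interval of the share held both 0 and the straight line for 1502 of the 2073 genes (72.5%), so that neither a 44 °C-only nor a proportional response could be told from the other at this depth and number of libraries. It held 0 and lay below the line for 326 genes (15.7%), and it lay above 0 and below 1 for 89 genes that include the line and 5 that lie under it. In 135 genes (6.51%) it lay above 0, held the line and reached 1. It lay above the line in 13 genes, for which 40 °C was nearer to 44 °C than a straight line gives, and below 0 in 3. The share did not move much with the size of the change: the median was 0.277 for the 108 genes with at least a 2-fold change, 0.276 for 273 genes between 1.5- and 2-fold, and 0.247 for 1692 smaller ones.

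Among the cytosolic heat shock chaperones, the small heat shock proteins Hspb1 and Cryab and the inducible HSP70 genes were higher at 44 °C. Hspb1 encodes the small heat shock protein HSP25, an ATP-independent holdase (chr5:135887919-135889563, plus strand, mm10 as in the deposited table). Its level was 78.2, 72.3, 60.2 and 74.5 CPM in the 37 °C libraries, 65.6, 61.1, 63.8 and 75 CPM at 40 °C, and 252, 224, 198 and 211 CPM at 44 °C. The 37 °C and 40 °C libraries overlapped, and every 44 °C library lay above both. The mean was 3.10-fold higher at 44 °C than at 37 °C (log2 1.63 ± 0.0915 SE), with a log2 difference of -0.10 ± 0.0916 at 40 °C. The 40 °C mean lay 0.80 ± 0.0815 below the line on the log2 scale (-0.80, edgeR adjusted p = 0.000974), and the share was -0.0635 with a 95% interval of -0.19 to 0.05. A listed pseudogene, Hsp25-ps1, stood at 0.392, 0.136 and 0.945 CPM in the 3 groups, and how reads shared with it were counted is not stated. Hsp25-ps1 was singled out after its values were seen.

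Hspa1b and Hspa1a encode near-identical inducible HSP70 proteins, the refolding chaperones that are the textbook targets of HSF1. Their reads may have been split between the copies in counting, so both are uncertain as single genes. Hspa1b had 8.47, 9.10, 8.79 and 8.36 CPM at 37 °C, 9.66, 10.0, 10.3 and 11.3 CPM at 40 °C, and 20.3, 17.6, 19.3 and 18.1 CPM at 44 °C. Unlike Hspb1, the 3 groups did not overlap, with the 40 °C libraries just above those of 37 °C. The share was 0.222, with an interval of 0.06 to 0.37 that excluded both 0 and the line, although the departure itself was not called (log2 -0.23 ± 0.0787, edgeR adjusted p = 0.608). Hspa1a stood at 0.776 ± 0.207, 1.34 ± 0.268 and 4.61 ± 1.33 CPM (SD, n = 4 each), a share of 0.307 with an interval of 0.07 to 0.5.

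The promoters of these genes show the heat shock element core that HSF1 binds, given here as GAANNTTC and printed in capitals. Both stretches are the 150 bases before the RefSeq start site on GRCm38.p6, the same build as mm10, read 5′ to 3′ along the gene.
Hspb1, chr5:135887769-135887918, plus strand: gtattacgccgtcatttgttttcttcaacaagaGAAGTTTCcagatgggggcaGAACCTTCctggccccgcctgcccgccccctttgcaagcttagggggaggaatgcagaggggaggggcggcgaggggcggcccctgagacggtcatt
Hspa1b, chr17:34959239-34959388, minus strand: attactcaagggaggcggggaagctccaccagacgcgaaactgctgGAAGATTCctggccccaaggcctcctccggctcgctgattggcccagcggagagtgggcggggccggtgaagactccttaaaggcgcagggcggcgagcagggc
Hspb1 held 2 matches, starting 117 and 97 bases before the start site, and Hspa1b held 1, starting 104 bases before it. Windows of 300 bases, from 250 before to 50 after the start, were found for 10257 genes tested. On either strand the core occurred in 5.51% of all windows, in 9 of 18 windows of the heat shock list, and in 3 of the 6 genes with a called departure, which were Hspb1, Bst2 and Ifitm3. It occurred in 6.27% of windows of genes called higher and 3.82% of genes called lower with temperature. These are letter matches and say nothing of binding.

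Most of the heat shock list was not called. Of 23 genes tested, 5 were called higher (Hspb1, Hspa1a, Hspa1b, Cryab and Hsf1) and 3 lower (Hspb8, Bag3 and Dnajb4). All 8 had 40 °C on the 37 °C side of the line, beside 78.3% of all genes called for trend. Hsf1, Hspb8, Bag3 and Dnajb4 were named after their values were seen. Cryab, the small heat shock protein αB-crystallin, averaged 23.5 ± 2.26 CPM at 37 °C, 21.0 ± 0.927 at 40 °C and 33.3 ± 2.55 at 44 °C. Its 4 values at 44 °C lay above all 8 others (log2 0.50 ± 0.0824), and its share was -0.338 with an interval of -0.93 to 0.01, although its departure was not called (adjusted p = 0.155). Hsph1, an HSP110 exchange factor, Dnajb1, an HSP40 co-chaperone, and Hspa8, the constitutive HSP70, had their highest mean at 40 °C. None of the 3 was called by any test of the main edgeR fit. Dnajb1, for instance, averaged 126 ± 7.24, 141 ± 3.71 and 129 ± 5.07 CPM, and its 4 libraries at 40 °C lay above all 8 others (first step log2 0.16 ± 0.0521, adjusted p = 0.823). The list median was accordingly higher at 40 °C (log2 0.118) than at 44 °C (0.0799), whereas its mean was 0.104 ± 0.0586 at 40 °C and 0.243 ± 0.0624 at 44 °C (SD over libraries). With the within-group axis in the model the median at 44 °C was -0.0164, with 5 genes called higher, 6 lower and 7 for departure. The slopes of Hspa8 and Hsph1 were each called in 1 of 20 alternatives. Omitting 44 °C replicate 1 gave 9 genes called higher.

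**Figure D2:**
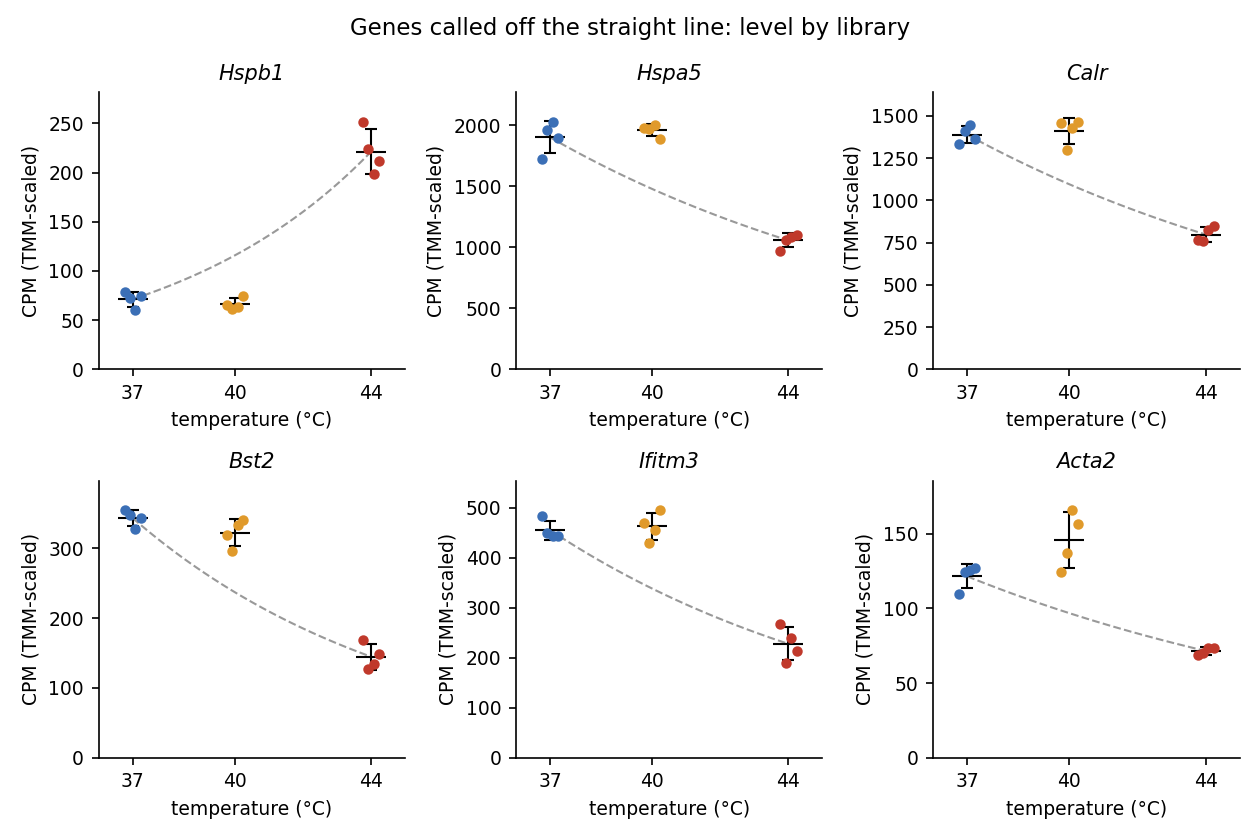
Level of the 6 genes with a called departure (y axes, TMM-scaled CPM from 0) against temperature (x axes, °C); coloured points are the 4 libraries of each group, black bars the mean ± SD, and the dashed curve joins the 37 °C and 44 °C means along a straight line on the log2 scale. In every panel the 40 °C mean sits near that of 37 °C, or in Acta2 above it, and away from the dashed curve, while the 44 °C points stand clear of both, as in Hspb1 with means of 71.3, 66.4 and 221 CPM.

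Genes of ER protein folding were lower at 44 °C and near their control level at 40 °C. Of 23 ER chaperone and unfolded protein response genes tested, 14 fell with temperature and 0 rose, and 15 fell from 40 °C to 44 °C. All 14 had 40 °C on the 37 °C side of the line, beside 83.2% of all genes called lower. The median log2 difference over the 23 genes was -0.0142 at 40 °C and -0.306 at 44 °C, against -0.000964 and -0.000335 over all genes tested. The mean of the list in single libraries lay between -0.122 and 0.00593 at 40 °C and between -0.43 and -0.391 at 44 °C (log2, relative to the 37 °C mean). The 4 libraries at 44 °C thus differed by less from each other than those at 40 °C did, and their summed level ran from 8549 to 8782 CPM at 37 °C, 8215 to 8892 CPM at 40 °C and 5795 to 6130 CPM at 44 °C. Leaving out 1 library at a time kept between 14 and 16 genes called lower.

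Hspa5 encodes BiP, the HSP70 of the ER lumen (chr2:34771970-34777547, plus strand). It had 1725, 1959, 2031 and 1898 CPM at 37 °C, 1980.5, 1968, 2006 and 1890.0 CPM at 40 °C, and 974, 1064, 1088 and 1102 CPM at 44 °C. The first 2 groups overlapped and every 44 °C library was lower. The log2 difference from 37 °C was 0.0433 ± 0.0543 at 40 °C and -0.85 ± 0.0547 at 44 °C, and the departure was 0.41 ± 0.0465 (edgeR adjusted p = 0.00167). Calr, the lectin chaperone calreticulin (chr8:84841850-84846934, minus strand), followed the same course with 1388 ± 50.3, 1412 ± 77.0 and 798 ± 45 CPM (SD, n = 4 each; departure adjusted p = 0.00279). Hsp90b1, the ER HSP90 paralogue, averaged 923 ± 31.7, 907 ± 35.2 and 589 ± 42.3 CPM, a log2 change of -0.65 ± 0.0538 at 44 °C with a share of 0.0401 and an interval of -0.15 to 0.2. Its departure was not called (adjusted p = 0.142). The other called members, named after their values were seen, were the foldases and cofactors Pdia3, Pdia4, Pdia6, P4hb, Manf, Creld2, Sdf2l1 and Dnajb9, the regulator Xbp1, and the degradation factors Herpud1 and Sel1l, with shares between -0.23 (Creld2) and 0.21 (Herpud1).

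The stretch before the start of Hspa5 is shown because ER stress elements end in the letters CCACG, here in capitals, which start 51 bases before the RefSeq start site.
Hspa5, chr2:34771940-34772089, plus strand: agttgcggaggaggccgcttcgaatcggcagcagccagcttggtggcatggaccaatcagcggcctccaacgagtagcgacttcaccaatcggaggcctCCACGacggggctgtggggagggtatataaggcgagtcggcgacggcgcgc
CCACG on either strand is common, at 48.3% of all windows, and occurred in 17 of 19 windows of the ER list (89.5%). It was nearly as frequent in lists with genes called only higher, the TRiC chaperonin (6 of 7 windows, 85.7%) and ribosome biogenesis (19 of 23, 82.6%). Other lists scanned lay between 23.5% (interferon-stimulated genes) and 68.8% (ATF4 targets). The match occurred in 44.7% of windows of genes called lower with temperature and 48.9% of those called higher. It is thus not particular to genes that fell. Calr and Bst2 held 1 match each and Hspb1 none.

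Interferon-stimulated and antigen presentation genes had the lowest medians at 44 °C among the lists with at least 10 genes tested, again with little difference at 40 °C. Of 24 interferon-stimulated genes, 15 fell with temperature and 0 rose, and of 10 antigen presentation genes 9 fell. All of those called in either list had 40 °C on the 37 °C side of the line, beside 83.2% of all genes called lower. The median log2 difference was -0.0341 at 40 °C and -0.525 at 44 °C for the first list, and -0.0292 and -0.62 for the second. At 44 °C the libraries were spread, with list means from -1.01 to -0.196 for interferon genes and from -0.866 to -0.364 for antigen presentation. The library with the smallest fall, 44 °C replicate 1, lay low on the within-group axis (-1.07), and those with the largest, replicates 2 and 4, lay high (1.5 and 1.37). Leaving out 1 library at a time gave between 11 and 17 interferon genes called lower.

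Bst2 encodes tetherin, an antiviral membrane protein (chr8:71534255-71537456, minus strand). It had 354, 347, 328 and 343 CPM at 37 °C, 319, 296, 333 and 340.1 CPM at 40 °C, and 169, 127, 135 and 148 CPM at 44 °C. The 40 °C values overlapped those of 37 °C, and those of 44 °C were lower than all 8. The log2 difference was -0.0904 ± 0.0754 at 40 °C and -1.25 ± 0.077 at 44 °C, with a share of 0.0726 and an interval of -0.06 to 0.19 (departure 0.44 ± 0.0648, edgeR adjusted p = 0.0171). Ifitm3, which blocks virus entry from endosomes (chr7:141009586-141010770, minus strand), averaged 455 ± 19.1, 463 ± 27.4 and 228 ± 33.0 CPM (departure adjusted p = 0.0321). These 2 calls were the least firm: leaving out 1 library at a time kept the departure of Bst2 in 6 of 12 fits (adjusted p up to 0.149) and that of Ifitm3 in 4 of 12 (up to 0.213), while Hspb1, Hspa5, Calr and Acta2 kept it in 12 of 12. Without TMM scaling the adjusted p was 0.0775 for Bst2 and 0.143 for Ifitm3.

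The interferon response element that IRF factors bind repeats the core GAAANNGAA. It is shown in the 150 bases before the RefSeq start of Bst2, where 2 overlapping matches start 130 and 124 bases before the start site.
Bst2, chr8:71537473-71537622, minus strand: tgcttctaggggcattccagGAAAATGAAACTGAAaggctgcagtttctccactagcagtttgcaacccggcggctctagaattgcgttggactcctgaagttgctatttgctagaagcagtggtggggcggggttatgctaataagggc
The core occurred in 6.93% of all windows and in 11 of 17 windows of the interferon list (64.7%), and in 9.54% of genes called lower with temperature against 7.97% of those called higher.

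Irf7, the interferon regulatory factor that amplifies the response, had 89.6, 67.4, 61.6 and 74.9 CPM at 37 °C, 62.4, 50.4, 74.1 and 88.4 CPM at 40 °C, and 42.0, 18.7, 32.4 and 20.5 CPM at 44 °C. Its 44 °C values were lower than all others (log2 -1.37 ± 0.225), and its share of 0.0672 had an interval of -0.33 to 0.36, which lies below the line. Gbp3, a guanylate-binding protein, averaged 51.8 ± 2.83, 53.4 ± 1.48 and 26.6 ± 6.27 CPM (share -0.0466). H2-K1, the class I heavy chain, averaged 142 ± 10.5, 147 ± 21.3 and 91.1 ± 13.4 CPM (share -0.0641), and Psmb10, an immunoproteasome subunit, 37.4 ± 2.10, 39.0 ± 2.60 and 27.3 ± 0.894 CPM (share -0.131).

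Acta2, smooth muscle α-actin and a gene of contractile and activated mesenchymal cells, was the sixth gene with a called departure (chr19:34241090-34255336, minus strand). Its values were 109, 124, 125 and 127 CPM at 37 °C, 124, 137, 166 and 156 CPM at 40 °C, and 69.0, 70.0, 73.6 and 73.6 CPM at 44 °C. The 40 °C mean lay above that of 37 °C, though the 2 groups overlapped, and all 44 °C values were lower. The log2 difference was 0.27 ± 0.0798 at 40 °C (adjusted p = 0.823) and -0.76 ± 0.0813 at 44 °C, and the interval of the share, -0.67 to -0.12, lay below 0. Of the smooth muscle and perivascular markers, 3 of 9 passed the filter (Acta2, Pdgfrb and Cspg4) and all 3 fell with temperature, with a summed level of 204 to 233 CPM at 37 °C, 213 to 262 CPM at 40 °C and 135 to 163 CPM at 44 °C, while Myocd had no count. Cspg4 was named after its values were seen, and leaving out 1 library gave 2 or 3 of these genes called lower. Of 12 macrophage and blood cell markers 5 were tested, with 1 higher and 2 lower (Mpeg1 and Fyb), a summed level of 65.5 to 92.0, 56.8 to 73.6 and 53.05 to 77.2 CPM, and no count for Adgre1 and Tyrobp. The part of such cells in the falls was not tested, and in these bulk libraries fewer cells of a type and less RNA per cell cannot be told apart. Endothelial markers (5 of 9 tested) had 2 genes higher, Pecam1 and Cdh5, at under 3 CPM, of which Cdh5 lost its call in 13 of 20 alternatives, epithelial markers (5 of 7) had 1 lower, and adipocyte markers (4 of 7) had 0 called. No skeletal muscle marker passed the filter, and Myod1, Myog and Pax7 had no count.

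Matrix genes fell mainly between 40 °C and 44 °C. Of 25 collagen and matrix turnover genes, 12 fell with temperature and 2 rose. Of these 14, 13 had 40 °C on the 37 °C side of the line, beside 78.3% of all genes called for trend. The list median was 0.0399 at 40 °C and -0.354 at 44 °C. Col3a1, a fibrillar collagen, had 87.9, 76.3, 67.0 and 72.2 CPM at 37 °C, 70.8, 55.2, 82.5 and 81.4 CPM at 40 °C, and 42.9, 23.7, 35.2 and 24.2 CPM at 44 °C, so that only the last group stood apart (log2 -1.27 ± 0.173, share 0.0515, interval -0.27 to 0.29). Tnc, the matrix glycoprotein tenascin C, went the other way, with 32.6 ± 3.43, 35.1 ± 5.16 and 53.7 ± 5.79 CPM (log2 0.72 ± 0.108 at 44 °C, share 0.147). When 1 library was left out, 7 to 16 genes of this list were called lower, with 7 without 44 °C replicate 2.

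A smaller set of genes had an interval of the share between both ends, Hspa1b and Hspa1a among them. These intervals are per gene and not adjusted for the number of genes. An interval above 0 amounts to an unadjusted p under 0.05 in the first step, which 5.21% of all genes tested had. In 94 genes the interval of the share lay above 0 and below 1 and held the line or lay under it. With intervals above the line that end below 1 also admitted, 81 genes had at least 5 CPM and a gene name that is not a predicted one. Those named here from this group were chosen after their values were seen, except where the rule for named genes took them. Since none passed the adjusted test of the first step, they are descriptions of position and not calls of a graded response.

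Cyr61 and Ctgf, matricellular CCN proteins and classic targets of YAP and of mechanical stress, rose with temperature. Cyr61 had 214, 198, 215 and 196 CPM at 37 °C, 218, 252, 305 and 308 CPM at 40 °C, and 463, 421, 394 and 425 CPM at 44 °C. The 3 groups did not overlap, and the 40 °C libraries spread upward from the edge of the 37 °C range. The log2 difference was 0.40 ± 0.0931 at 40 °C and 1.05 ± 0.0937 at 44 °C, a share of 0.378 with an interval of 0.21 to 0.54, and the departure was -0.053 ± 0.0808 (adjusted p = 0.978). Ctgf had 20.0, 18.7, 18.2 and 20.6 CPM at 37 °C, 18.7, 20.8, 37.7 and 30.2 CPM at 40 °C, and 36.8, 35.0, 35.7 and 40.0 CPM at 44 °C. Its middle share of 0.512 (interval 0.16 to 0.86) is not a mean of 4 intermediate libraries. At 40 °C 2 libraries lay at the 37 °C level, 1 lay within the 44 °C range (37.7 CPM) and 1 between the 2 ranges (30.2 CPM). The 2 libraries with more Ctgf, replicates 3 and 4, also had the higher means of the whole list of 16 CCN and YAP target genes at 40 °C (0.293 and 0.22, against 0.0557 and 0.0257 in replicates 1 and 2). Of that list 7 genes rose and 2 fell, 6 with 40 °C on the 37 °C side of the line and 3 on the other, and without 44 °C replicate 2 the number called higher was 4. Among smaller changes, Hbegf, a growth factor of the EGF family, averaged 22.6 ± 2.63, 26.6 ± 2.93 and 38.6 ± 2.57 CPM (share 0.308, interval 0.05 to 0.54).

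**Figure D3:**
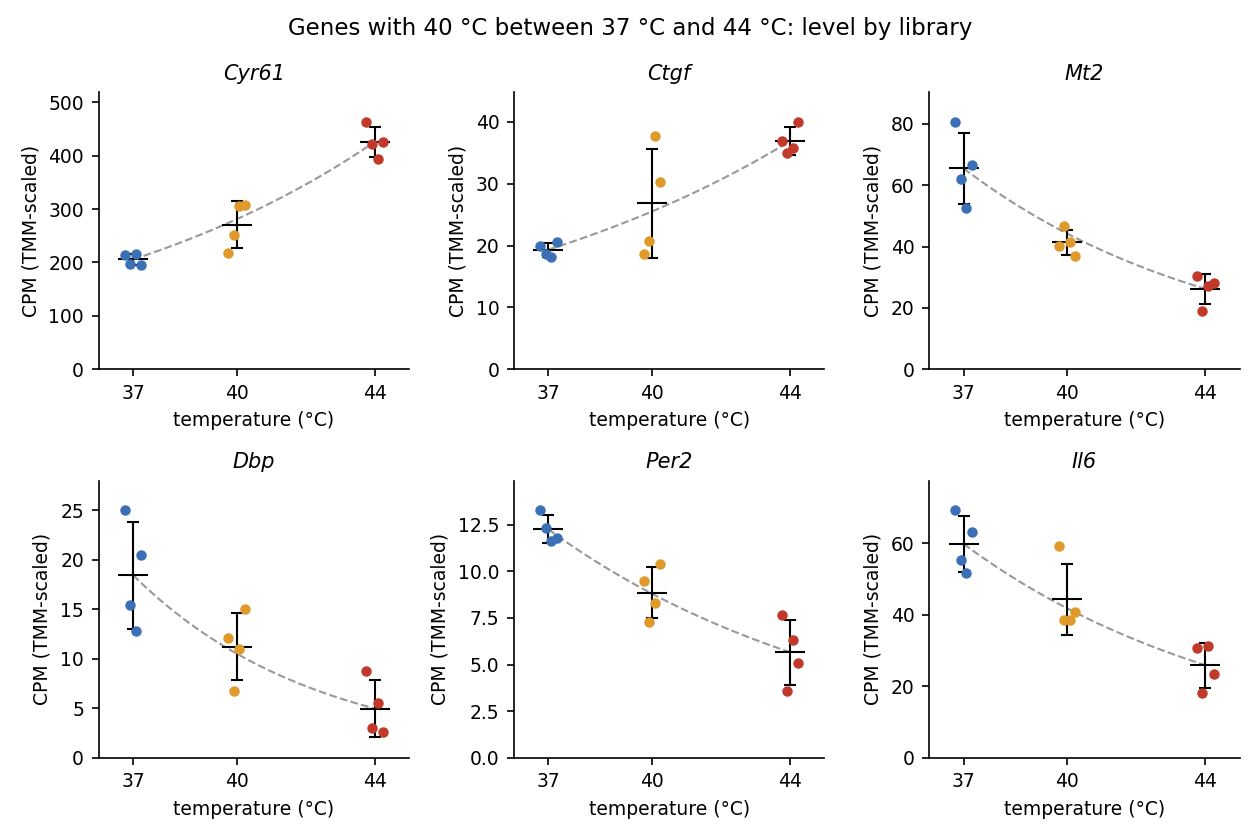
Level of 6 genes with a 40 °C mean between those of 37 °C and 44 °C (y axes, TMM-scaled CPM from 0) against temperature (x axes, °C), with the 4 libraries of each group as points, mean ± SD as black bars and the straight line on the log2 scale as a dashed curve. The 40 °C means lie near the dashed curve, from Cyr61 (206, 271 and 426 CPM) to Per2 (12.2, 8.86 and 5.66 CPM), while in Ctgf the 4 libraries at 40 °C fall into a low and a high pair.

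Clock genes fell with temperature, and none passed the test of the first step. Of 17 clock genes tested, 8 fell and 1 rose, 5 of these 9 with 40 °C on the 37 °C side of the line and 4 on the 44 °C side, and the list median was -0.218 at 40 °C and -0.403 at 44 °C. Dbp, a transcription factor driven by CLOCK and BMAL1, had 25, 15.4, 12.9 and 20.5 CPM at 37 °C, 12.1, 6.78, 11 and 15.1 CPM at 40 °C, and 8.76, 2.98, 5.56 and 2.63 CPM at 44 °C. Neighbouring groups overlapped while 37 °C and 44 °C did not, and the log2 change at 44 °C was -1.89 ± 0.33 with a share of 0.378 (0.04 to 0.7). Per2, a repressor of the clock, had 13.3, 12.3, 11.6 and 11.8 CPM at 37 °C, 9.48, 7.29, 8.28 and 10.4 CPM at 40 °C, and 7.65, 3.58, 6.32 and 5.09 CPM at 44 °C. Each 40 °C value lay below all of 37 °C, with a share of 0.42 (0.11 to 0.73). Arntl, which encodes BMAL1, was the member that rose, with 32.3 ± 1.55, 34.0 ± 0.893 and 40.3 ± 2.50 CPM. The list means also followed the within-group axis, as 44 °C replicates 2 and 4 were lowest (-0.754 and -0.682) and 37 °C replicate 1 highest (0.242). With the axis in the model these medians were -0.139 and -0.248. Leaving out 1 library gave between 5 and 11 genes called lower, with 5 without 44 °C replicate 2 or 4. At 40 °C the list mean was -0.439 in replicate 2 and -0.146, -0.153 and -0.0232 in replicates 1, 3 and 4. The 40 °C median ran from -0.295 to -0.128 when 1 library was left out.

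Mt2 and Hist1h1c fell with temperature and had 3 groups that did not overlap. Mt2 encodes a metallothionein that binds zinc and other metals. It had 80.7, 62.0, 52.7 and 66.5 CPM at 37 °C, 40.3, 46.9, 41.7 and 37.0 CPM at 40 °C, and 30.5, 19.1, 27.1 and 28.1 CPM at 44 °C, so that each 40 °C library lay between the other groups. The log2 difference was -0.66 ± 0.137 at 40 °C and -1.32 ± 0.14 at 44 °C, a share of 0.501 (0.31 to 0.7). Hist1h1c, a linker histone, averaged 15.6 ± 2.11, 10.5 ± 1.29 and 7.14 ± 0.985 CPM with a share of 0.504 (0.29 to 0.72). Groups at 40 °C and 37 °C did not overlap in 3.83% of all genes tested, and the adjusted p of the first step was 0.823 for both genes.

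Of 20 NF-kB, chemokine and cytokine genes, 8 fell with temperature and 1 rose. Of these 9, 7 had 40 °C on the 37 °C side of the line, beside 78.3% of all genes called for trend, and none had a called departure or first step. Socs3, a feedback inhibitor of cytokine signalling, had 227, 225, 202 and 213 CPM at 37 °C, 211, 180.4, 179 and 185 CPM at 40 °C, and 139.6, 109, 115 and 105 CPM at 44 °C. Its 40 °C range touched that of 37 °C, and the share of 0.224 had an interval of 0.03 to 0.39. Il6, an inflammatory cytokine, averaged 59.8 ± 7.88, 44.3 ± 10.0 and 25.9 ± 6.27 CPM (share 0.36, 0.08 to 0.61), and Ccl2, a monocyte chemokine, 26.5 ± 3.98, 21.0 ± 2.30 and 13.5 ± 1.95 CPM (share 0.346, 0.09 to 0.58). Ptgs2, the inducible cyclooxygenase, rose, with 83.9 ± 3.10, 95.1 ± 7.67 and 142 ± 13.2 CPM and 3 groups that did not overlap (log2 0.75 ± 0.0713 at 44 °C, share 0.237, 0.04 to 0.41).

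DNA replication genes were higher at 44 °C. Of 28 DNA replication genes 10 rose and 0 fell, and the list median was 0.0268 at 40 °C and 0.164 at 44 °C. All 10 had 40 °C on the 37 °C side of the line, beside 73.1% of all genes called higher. The list mean lay between 0.138 and 0.165 in the 44 °C libraries and between -0.0127 and 0.098 at 40 °C, so that the 44 °C group stood clear of the rest although the difference was small. Omitting 37 °C replicates 1, 2 or 4 or 44 °C replicate 3 gave 5, 6, 6 and 5 genes called higher. Rpa1, a subunit of the single-strand binding complex, averaged 229.9 ± 4.59, 231 ± 12.5 and 284 ± 6.48 CPM (log2 0.30 ± 0.0471, share 0.0299, interval -0.37 to 0.32). Prim1, the primase subunit, averaged 80.5 ± 6.69, 84.2 ± 12.3 and 118 ± 12.0 CPM (share 0.117). In the mitosis list 2 of 20 genes rose and 3 fell, near the shares over all genes, and 5 and 4 rose without 44 °C replicate 1 and 40 °C replicate 2. Of the 2 that rose, Cdk1, the mitotic kinase, averaged 244 ± 3.35, 262 ± 10.7 and 298 ± 8.90 CPM with a share of 0.36 (0.04 to 0.64), and Top2a, the topoisomerase of condensing chromosomes, 1509 ± 41.9, 1499 ± 58.2 and 1818 ± 67.9 CPM with a share of -0.0364 (-0.49 to 0.27).

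Ribosome biogenesis had the highest medians of the lists with at least 10 genes tested, 0.22 at 40 °C and 0.454 at 44 °C, with 10 of 28 genes higher, 5 on either side of the line. Its level did not hold together within groups: list means were -0.323 to 0.264 at 37 °C, -0.0101 to 0.6 at 40 °C and 0.0358 to 0.731 at 44 °C. Utp4, a subunit of the small-subunit processome, had 113, 136, 165 and 137 CPM at 37 °C, 145, 205, 154 and 138 CPM at 40 °C, and 165, 259, 189 and 236 CPM at 44 °C, and all 3 groups overlapped or touched. With the axis in the model the list medians were 0.104 and 0.196. At 40 °C the list mean was 0.6 in replicate 2 and 0.12, 0.165 and -0.0101 in replicates 1, 3 and 4. The 40 °C median ran from 0.0788 to 0.308 when 1 library was left out. Leaving out 1 library gave between 0 (44 °C replicate 2) and 25 (44 °C replicate 1) genes called higher, and the count moved by over 1.5 times without any library except 37 °C replicate 3 and 40 °C replicates 1 and 4. The TRiC chaperonin, which folds actin and tubulin, had 4 of 8 subunits higher (median 0.102 and 0.214), and between 1 (37 °C replicates 1 or 4, 44 °C replicates 2 or 4) and 7 (44 °C replicate 1) when 1 library was left out, with 2 without 37 °C replicate 2 or 44 °C replicate 3. Cholesterol synthesis had 4 of 22 higher, beside 6.95% of all genes tested. Among the 4 was Cyp51, a demethylase of the pathway, with 102 ± 6.72, 118 ± 9.34 and 142 ± 14.8 CPM (share 0.423, 0.09 to 0.74).

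**Figure D4:**
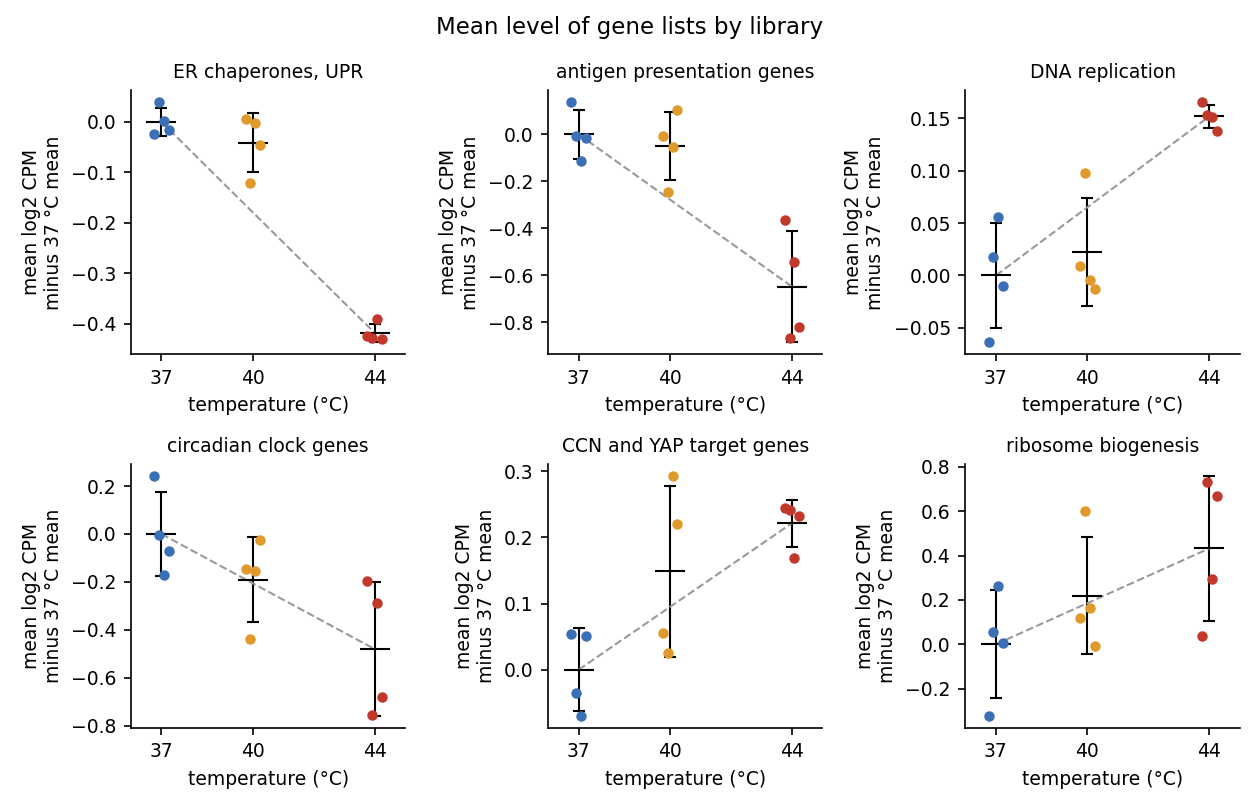
Mean log2 CPM of 6 gene lists in each library, relative to the mean of the 37 °C libraries (y axes), against temperature (x axes, °C), with 4 points per group, mean ± SD as black bars and the straight line between the end means dashed. The ER list is flat to 40 °C and lies between -0.43 and -0.391 at 44 °C with little spread, whereas ribosome biogenesis spreads from 0.0358 to 0.731 within the 44 °C group.

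Among the remaining stress lists, 8 of 20 NRF2 oxidative stress targets fell and 0 rose. Of these 8, 7 had 40 °C on the 37 °C side, beside 83.2% of all genes called lower. The number that fell was 5 without 37 °C replicates 1 or 2 or 44 °C replicates 2, 3 or 4. G6pdx, which supplies NADPH, averaged 114 ± 3.14, 112 ± 3.33 and 86.6 ± 4.14 CPM (share 0.0646), and Slc7a11, the cystine transporter that also counts among ATF4 targets, 12.0 ± 0.529, 11.2 ± 0.986 and 6.78 ± 0.730 CPM (share 0.131). The ATF4 targets had 3 of 17 higher and 2 lower, p53 targets 4 of 16 higher (0 without 37 °C replicate 1 or 44 °C replicate 4, 1 without 37 °C replicate 4 or 44 °C replicates 2 or 3, 2 without 37 °C replicate 2) and 3 lower, immediate early genes 2 of 20 higher and 3 lower, and glycolysis and hypoxia genes 0 of 23 higher and 2 lower. Mitochondrial chaperones and proteases had 1 of 11 higher. Over all genes tested, 6.95% were called higher and 7.43% lower. The 2 glycolysis and hypoxia genes called lower and the 1 mitochondrial gene called higher are near those shares. Several of the counts in these lists moved when 1 library was left out. The ATF4 targets called higher ran from 1 (37 °C replicates 1, 2 or 4, 40 °C replicate 3, 44 °C replicates 2 or 4) to 4. Immediate early genes ran from 0 to 3 higher (0 without 44 °C replicate 2, 1 without any 37 °C replicate, 40 °C replicates 1 or 3 or 44 °C replicate 1) and from 1 to 4 lower (1 without 37 °C replicates 1, 2 or 4 or 44 °C replicates 2 or 4). Glycolysis and hypoxia genes ran from 1 to 8 lower (8 without 44 °C replicate 1, 5 without 40 °C replicate 2, 1 without any 37 °C replicate, 40 °C replicates 1 or 3 or 44 °C replicates 2 or 4), and 9 were lower with the within-group axis in the model. Mitochondrial chaperones ran from 0 (37 °C replicates 1, 2 or 4, 44 °C replicates 2 or 4) to 6 (44 °C replicate 1), with 3 without 37 °C replicate 3. The cold-inducible RNA-binding proteins Cirbp and Rbm3, which are known to fall with heat, were not called for trend: Cirbp averaged 17.0 ± 2.63, 12.8 ± 1.89 and 14.1 ± 3.32 CPM and Rbm3 209 ± 11.7, 200.2 ± 18.6 and 191 ± 15.5 CPM. Of 10 temperature- and stretch-sensitive channels, Stim1, the ER calcium sensor, was the 1 that rose (48.8 ± 4.22, 48.7 ± 4.27 and 62.4 ± 2.45 CPM, share -0.0067).

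**Figure D5:**
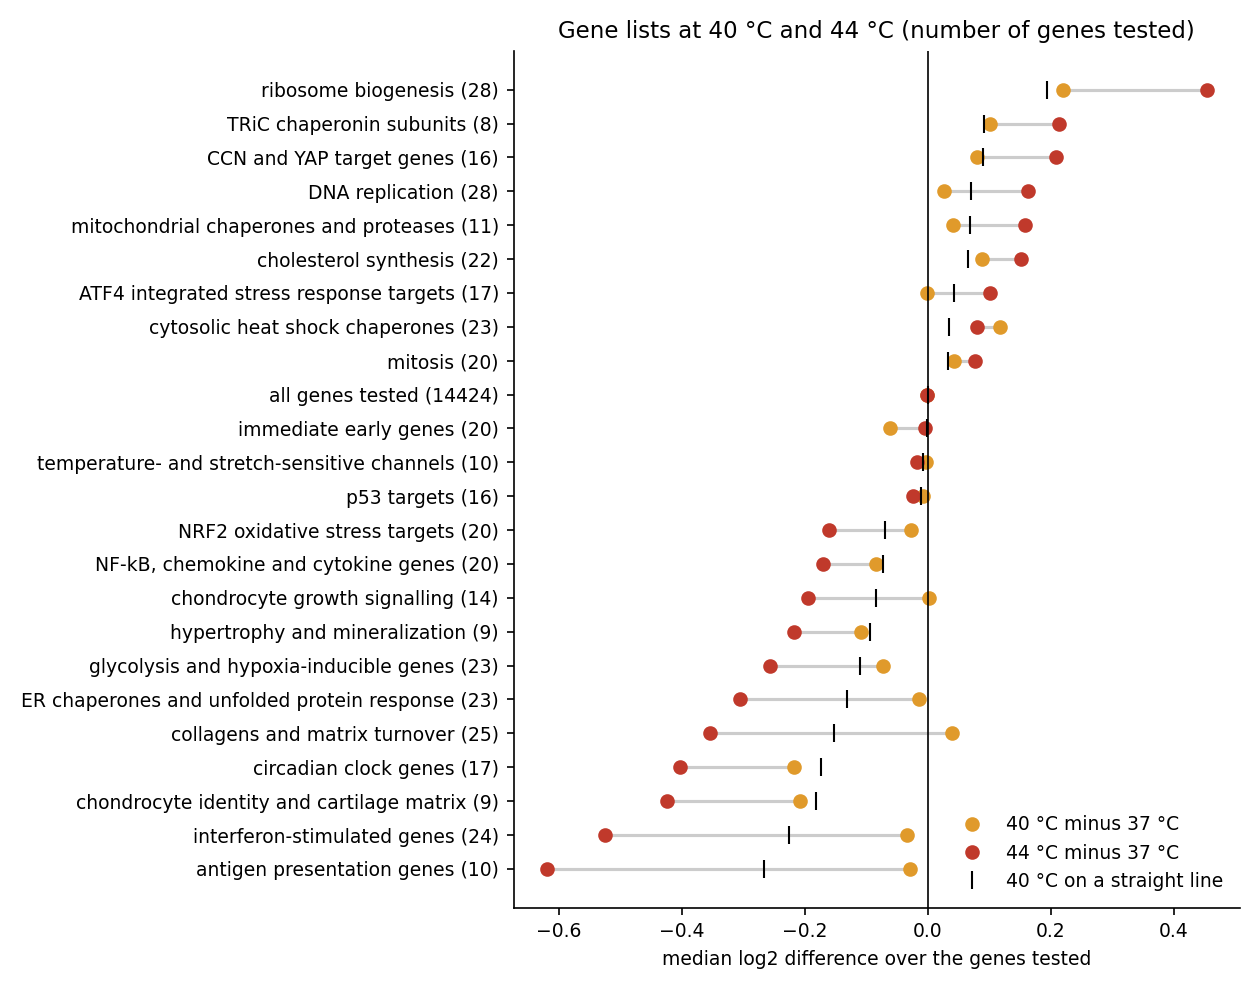
Median log2 difference over the genes of each list (y axis, with the number of genes tested) at 40 °C (orange) and 44 °C (red) relative to 37 °C (x axis, log2), with a black tick where 40 °C would lie on a straight line. For antigen presentation, interferon, matrix and ER genes the orange point lies near 0 and the red point between -0.62 and -0.306. For clock genes and ribosome biogenesis the orange point lies at the tick or beyond it. Leaving out 1 library moved that orange point to between -0.295 and -0.128 for clock genes and between 0.0788 and 0.308 for ribosome biogenesis.

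Genes of cartilage were low in these cells and mostly not called. Of 20 chondrocyte identity and matrix genes 9 passed the filter, and 4 had no count in any library (Col9a1, Matn1, Hapln1 and Fmod). Col2a1, the main cartilage collagen, stood at 1.21 ± 0.230, 0.994 ± 0.621 and 1.24 ± 0.362 CPM, and Acan, the aggrecan core protein, at 2.13 ± 0.420, 1.65 ± 0.0995 and 1.59 ± 0.731 CPM. Sox9, the master regulator of chondrocytes, averaged 54.2 ± 10.2, 50.9 ± 11.3 and 48.2 ± 15 CPM, and Runx2, which drives hypertrophy, 62.9 ± 3.43, 63.4 ± 1.71 and 60.5 ± 2.46 CPM, and neither was called. The 2 members called were Dcn and Prg4, matrix proteoglycans, both lower. Of the hypertrophy list 2 of 9 fell, Mef2d and Spp1, beside 7.43% of all genes tested. Of growth signalling genes 2 of 14 fell, Igfbp4 and Ptch1 (5 without 40 °C replicate 2, 4 without 44 °C replicate 1). Mki67, a proliferation marker, averaged 741 ± 32.2, 789 ± 30.9 and 814 ± 27.0 CPM and was not called for trend (adjusted p = 0.0692).

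A further 32 genes passed the joint test without a called trend or departure. In all of them the 2 steps had opposite signs, which follows largely from the rule, since it leaves out genes with a called trend. The 40 °C mean lay below the line in 21 and above it in 11. Those named here were chosen after their values were seen. Malat1, an abundant nuclear RNA, had 1148, 811, 937 and 926 CPM at 37 °C, 714, 768, 534 and 610.5 CPM at 40 °C, and 775, 784, 759.6 and 693 CPM at 44 °C. Its 4 values at 40 °C were lower than all of 37 °C and overlapped those of 44 °C (adjusted p of 0.0153 in the joint test, 0.049 for the whole change and 0.406 for the departure). Ftl1, the ferritin light chain, averaged 541 ± 19.0, 473 ± 37.2 and 577 ± 42.5 CPM, and Caprin2, an RNA-binding protein, 21.4 ± 1.38, 17.4 ± 1.87 and 23.1 ± 0.678 CPM. Igfbp7, a secreted IGF-binding protein, was instead highest at 40 °C with 42.3 ± 3.98, 49.6 ± 10.1 and 34.0 ± 3.78 CPM, with 57.7 and 58.3 CPM in 40 °C replicates 3 and 4. Ftl1, Caprin2 and Igfbp7 also passed the test of the second step (adjusted p of 0.0159, 0.0131 and 0.0223).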

How the data were processed

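RNA-seq of 12 ATDC5 libraries gave raw counts per gene, deposited as 1 table with a column for each library. The tools named for mm10, per the submitters' processing notes, are featureCounts 1.5.0-p3, StringTie 1.3.3b, HISAT2 2.0.5 and fastp; their roles, the strand setting and the handling of multiply mapping reads are not given in the sources used here. Library totals of the deposited counts ran from 16269026 to 19506705. Replicate pairs within groups differed by more than sampling noise (chi-square per gene 2.85 to 20.9 over 18 pairs), so each library counted once. Groups come from the sample titles.

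The analysis used edgeR 4.0.16 under R 4.3.3. Its filterByExpr (minimum count 10, minimum total 15) kept 14424 genes and between 99.86% and 99.9% of counts. Library sizes were scaled by TMM, and the 12 libraries entered 1 quasi-likelihood fit in which each temperature has its own mean. Two-sided contrasts gave the least-squares slope on temperature, the departure of 40 °C from the line, both steps and the whole change, and a joint F-test covered any difference. Benjamini-Hochberg adjustment ran over every gene tested, separately for each test, and an adjusted p under 0.05 was a call. Standard errors are the log2 estimate divided by the square root of F. Intervals of the share reached at 40 °C are 95% intervals by inversion of the test, searched from -1 to 2, without adjustment for the number of genes. A gene was called 44 °C-only when departure and the second step were called and the first step was not. The rule did not ask for a called trend. The pipeline was tested on simulated counts of known shapes.

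Named genes are, per class, up to 4 that rose and 4 that fell with the largest change and at least 5 CPM, the 2 members of each list with the smallest trend p among those called, and a set of 28 genes named in every case; others are marked where they appear. Of 500 symbols in 30 lists, 498 matched the table. The classes, lists and tests were chosen with earlier results of these data known. Alternatives were DESeq2 1.42.0, limma 3.58.1 with voom, other scalings, no filter, a stricter threshold and equally spaced temperature scores. Further ones were a replicate block, a model that includes the within-group axis, and leaving out each library. The direction of the axis is the first principal component of libraries minus their group means. Libraries were projected on it with their group means kept, so the model also takes out group differences along it. Promoter windows are from RefSeq (GRCm38.p6), matched by symbol for 10101 genes and by an older symbol for 193, with 10257 on the same chromosome and strand as in the table.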

Additional observations from a re-analysis of the deposited data

Results flagged for a closer look

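Of 255 sets of 4 libraries (85 named genes at 3 temperatures), 17 held a library far from the other 3 by Dixon's ratio at its 95% critical value, and chance alone flags about 1 set in 20. At 37 °C all 5 concerned replicate 1. It was low for Acta2 (109 CPM) and high for Hist1h1c (18.8 CPM), Ifitm3 (484 CPM), Pkm (3928.5 CPM) and Prg4 (11.6 CPM). At 40 °C, replicate 1 was high for Arntl (35.4 CPM), Fyb (5.54 CPM), Gbp3 (55.6 CPM) and Il6 (59.2 CPM) and low for Cdk1 (246 CPM). Replicate 2 at 40 °C was high for Cct8 (629 CPM), Nop14 (113 CPM) and Prim1 (102.5 CPM) and low for Mef2d (186 CPM). At 44 °C, replicate 1 was high for Krt14 (28.1 CPM), and replicate 3 was low for Stim1 (58.8 CPM) and high for Top2a (1919 CPM). For Il6 the other 3 libraries at 40 °C lay between 38.5 and 40.8 CPM, close together and below all libraries at 37 °C.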

How the results depend on the processing

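Calls depend on the spread, which 12 libraries estimate with 9 residual degrees of freedom, and depth limits genes near the floor of 3 counts (0.154 to 0.184 CPM). Without a filter on low counts there were 28 departures, 23 genes of the 44 °C-only class, 2 graded, 3 early and 2 non-monotonic, 13 calls of the first step and 1784 of the joint test. DESeq2 gave 44 departures, 43 genes of the 44 °C-only class, 1 graded, 1 early, 4 calls of the first step, 1211 for the second step and 2051 for the joint test. With the within-group component as a covariate, which is estimated from the same libraries, trend gave 3322 (1630 higher, 1692 lower), departure 322, 44 °C-only 309, graded 4, early 2, departure alone 11, first step 11, second step 2535, whole change 3146 and joint test 3009. Equally spaced scores gave 16 departures and 16 genes of the 44 °C-only class. At an adjusted p of 0.01, trend gave 698 (274 and 424), second step 270, whole change 630, joint test 425 and trend with unresolved shape 694. Other scalings and voom kept these counts within 1.5 times.

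Leaving out 1 library gave 1020 to 3408 genes for trend (435 to 1754 higher, 585 to 1654 lower), where 37 °C replicates 1, 2 and 4 and 44 °C replicates 1, 2 and 4 moved the count by over 1.5 times. The same libraries moved the whole change (979 to 3355) and trend with unresolved shape (1014 to 3400) by as much. The range was 4 to 10 for departure and for the 44 °C-only class (highest without 40 °C replicate 2), 0 to 1 for the first step (1 without 44 °C replicate 1), 394 to 1265 for the second, 562 to 2125 for the joint test (moved by over 1.5 times without 37 °C replicates 1, 2 or 4 or any 44 °C replicate), and a median share of 0.156 to 0.338. The cause was not tested. Slopes that were not called changed sign: Col2a1 (-0.0204 to 0.0281 log2 per °C), Dnajb1 (-0.0021 to 0.00645) and Hsph1 (-0.0169 to 0.0184) when 1 library was left out, and Sox9 with the within-group component (0.0122). Over the named genes, 1714 comparisons of a slope or departure kept their direction and side of the threshold, 72 lost the call, 24 gained one and 10 changed sign.

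In their deviations from group means, same-numbered libraries correlated at -0.207 to 0.366 (median 0.0501 over 12 pairs). Pairs with other numbers correlated at -0.392 to 0.31 (median -0.00701 over 36 pairs). Among libraries of the other temperatures, 6 of 12 libraries correlated best with their own number. These values do not settle whether the replicate numbers pair libraries. With a replicate block the trend was called for 2654 genes, against 2073 without it, and the departure for 6.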
